A study of Mus musculus with 15 samples.

Results

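REST and a set of neuronal genes that it is known to repress were followed in mouse embryonic stem cells after knockdown of Sin3A or Tet1. The set was a curated list of 37 genes, Rest itself and 36 genes with reported REST control, chosen by name. No measured value entered the rule, but earlier results of these data were known when the list was made. Of these, 36 had a probe set, out of 18784 named genes on the array. Grin1 was not matched to a probe set and was not analysed here. Each of the 36 members was read by 1 probe set.

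Total RNA was measured on 15 Affymetrix arrays in 5 groups of 3. All cells were E14TG2a.4, a feeder-independent mouse embryonic stem cell line grown with leukaemia inhibitory factor and used at passage 17. Every group, controls included, had received a pLKO.1 lentivirus carrying a short hairpin RNA (shRNA) and had been kept in puromycin at 2 µg per ml for 72 hours, starting 36 hours after transduction. The Sin3A set of 6 arrays held a Sin3A shRNA and a scrambled shRNA of its own. The Tet1 set of 9 arrays held Tet1 shRNA 4, Tet1 shRNA 5 and another scrambled group. The labels name a single Sin3A hairpin, so no second hairpin checks that knockdown. Whether replicate arrays stem from independent cultures is not stated, so the p-values cover the scatter among these arrays alone, and that scatter may be technical.

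REST (RE1-silencing transcription factor) is a zinc-finger repressor that binds a DNA element called RE1 near neuronal genes. One end of the protein recruits SIN3 complexes with histone deacetylases, and the other recruits CoREST complexes, which also carry the histone demethylase KDM1A. REST is abundant in embryonic stem cells and is lost as neurons form, when its target genes become active. SIN3A is the scaffold of one of these co-repressors, and TET1 oxidises methylated cytosine and is known to associate with SIN3A.

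The RE1 element was searched for in the RefSeq promoter windows of the members (build GRCm38.p6, 250 bases before to 50 after each start site, 300 bases). The motif was TTCAGCACC, any 2 bases, then GGACAGCGC. Both strands were read and up to 3 mismatches were allowed over the 18 fixed positions. A match was found in 3 of the 33 windows of members, which is 9.09%, and in 37 of all 32851 windows, which is 0.113%. Windows were at hand for 22 of the 37 listed genes. A match describes letters only, and RE1 elements often lie outside such a window. The members with a match are shown because REST binds RE1. They are printed 5′ to 3′, with the matched 20 bases in capitals and up to 40 flanking bases in lower case:
Gria2: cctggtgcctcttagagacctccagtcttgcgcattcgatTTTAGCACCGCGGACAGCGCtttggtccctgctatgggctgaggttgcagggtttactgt
Celsr3: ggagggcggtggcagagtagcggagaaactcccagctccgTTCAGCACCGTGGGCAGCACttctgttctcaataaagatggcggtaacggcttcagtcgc
Syn1: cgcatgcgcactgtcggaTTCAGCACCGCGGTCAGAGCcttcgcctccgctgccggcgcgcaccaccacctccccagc

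The Gria2 match lay at chr3:80802989-80803008 on the plus strand, opposite to the gene, at -173 to -154 from the start site, and had 1 mismatch (C3T, the motif's base first, counted from 1 at the motif's 5′ end). The Celsr3 match lay at chr9:108825918-108825937 on the plus strand, which is the gene's strand, at -127 to -108, with 2 mismatches (A14G and G19A). The Syn1 match lay at chrX:20921131-20921150 on the minus strand, which is the gene's strand, at -232 to -213, with 2 mismatches (A14T and C18A). Of these genes, Celsr3 changed in all 3 knockdown groups and Gria2 and Syn1 passed the test in none, as described below.

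The targeted transcripts were low in every array of their knockdown. Sin3a had log2 levels of 9.35, 9.38 and 9.43 in the Sin3A shRNA arrays, against 10.87, 10.99 and 10.94 in their scrambled arrays. Tet1 had 10.43, 10.44 and 10.39 with Tet1 shRNA 4 and 9.94, 10.14 and 10.20 with Tet1 shRNA 5, against 12.21, 12.17 and 12.21 with the scrambled shRNA. Tet1 was also higher with the Sin3A shRNA, by 0.31 (limma adjusted p = 0.00679). Replicate arrays correlated across probe sets with r of 0.994 to 0.998. In the Tet1 set, replicate 2 of Tet1 shRNA 4 and replicate 2 of the scrambled group showed related deviations from their group means (r = 0.517 across 21212 probe sets, which are not independent), and calls of named genes that fail without both are given beside them below. All 12 embryonic stem cell markers lay above the median probe set in all 5 groups, and some changed, as given at the end. Signal was low for many members. In the scrambled groups, 22 of 36 lay below the median probe set in the Sin3A set, 8 of them below the lower quartile, and 19 of 36 lay below the median in the Tet1 set, 9 of them below the lower quartile. No detection p-value was at hand, so a member that did not pass at such a level may be one that the probe set did not read. All levels are the authors' log2 values, set side by side only within a probe set and within a set of arrays, except where the scale of the sets is described.

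The comparison of the Sin3A shRNA with its scrambled arrays asks what happens to REST and its targets when a REST co-repressor is depleted. Scn3b, a sodium channel subunit, and Unc13a, which primes synaptic vesicles for release, rose most, by 3.43-fold and 2.36-fold. The light and medium neurofilament genes Nefl and Nefm rose by 1.65-fold and 1.58-fold, Nefm from below the lower quartile of probe sets. Most of the set did not follow: 9 of 36 members were called higher (25%, against 12.2% of all probe sets), 2 were called lower (5.56%, against 12.6%) and 25 passed in neither direction, by limma with a threshold of 0.05 on p-values adjusted over all 21212 probe sets. The median log2 change was 0.04 over the members and 0.01 over all probe sets.

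**Figure D1:**
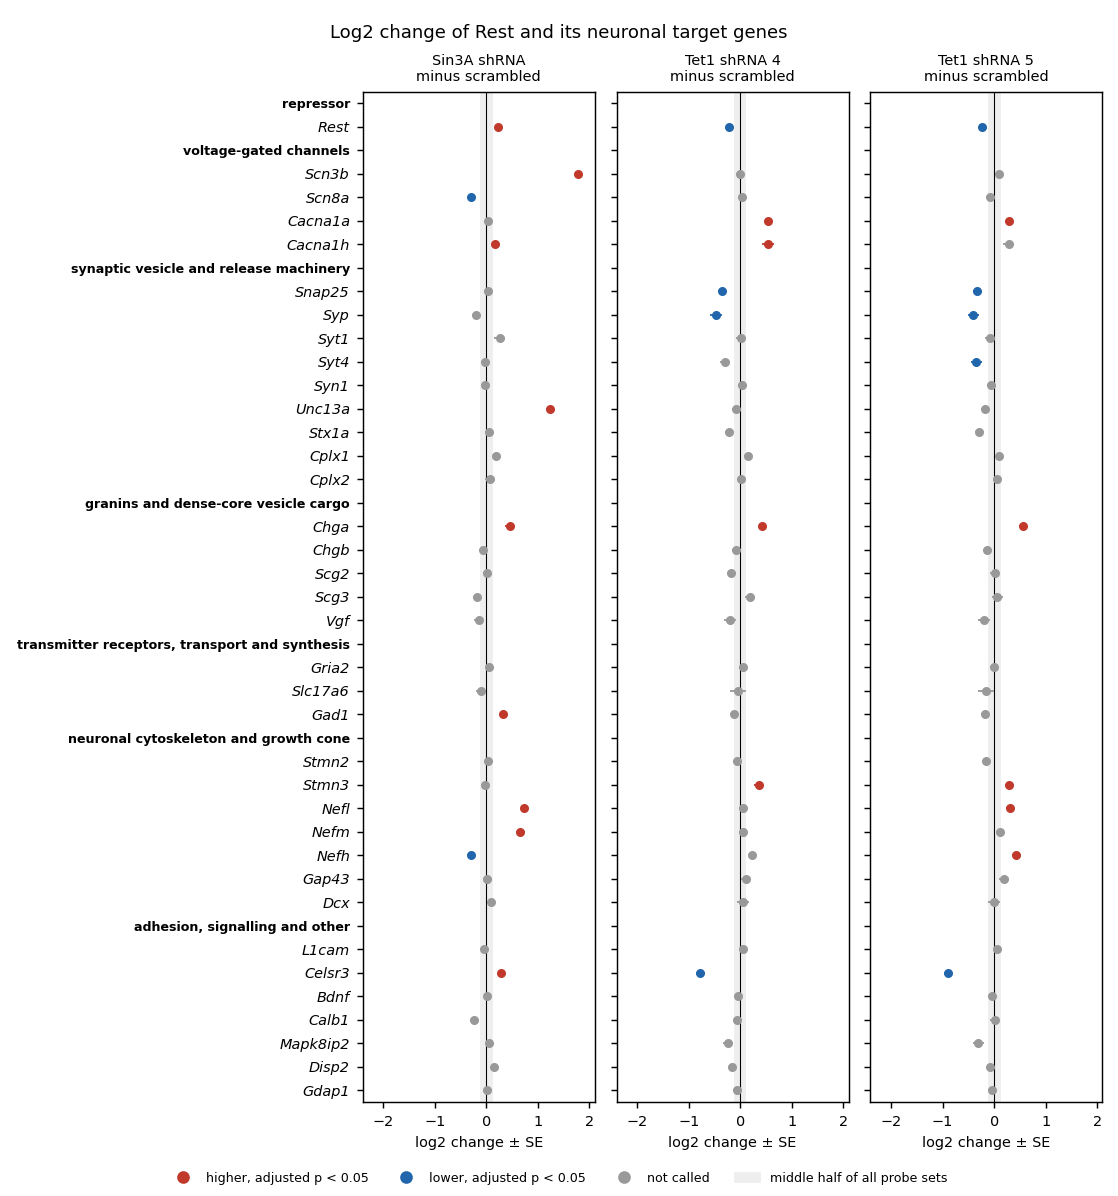
Log2 change of each of the 36 measured members (points, with SE as bars) in the Sin3A shRNA, Tet1 shRNA 4 and Tet1 shRNA 5 groups, each against the scrambled arrays of its set, arranged by role, with red and blue for calls at an adjusted p under 0.05 and the grey band for the middle of all probe sets. Scn3b at 1.78 and Unc13a at 1.24 stand out in the Sin3A panel, and Celsr3 at -0.77 and -0.89 in the Tet1 panels.

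Rest itself was slightly higher with the Sin3A shRNA. Its log2 levels were 12.32, 12.36 and 12.44 in the Sin3A shRNA arrays, against 12.16, 12.16 and 12.12 in the scrambled arrays. The groups did not overlap, and the change was 0.23 ± 0.05 (SE, limma adjusted p = 0.0168), or 1.17-fold. The call was lost without scrambled replicate 1 (adjusted p = 0.0502), scrambled replicate 3 (0.0543), Sin3A shRNA replicate 2 (0.0587) or Sin3A shRNA replicate 3 (0.0525), and with the replicate number as a block (0.0538).

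Among the voltage-gated channels, Scn3b had log2 levels of 9.76, 9.87 and 9.80 in the Sin3A shRNA arrays, against 7.99, 8.05 and 8.06 in the scrambled arrays. All 3 knockdown arrays lay far above the scrambled ones, with a change of 1.78 ± 0.05 (SE, limma adjusted p = 8.7e-06). Scn8a, which encodes a pore-forming sodium channel subunit, went the other way. It had 7.31, 7.24 and 7.14 with the Sin3A shRNA, against 7.52, 7.56 and 7.48 with the scrambled shRNA, and fell by 0.29 ± 0.06 on the log2 scale (SE, limma adjusted p = 0.00972). Both sodium channel subunits were thus called, in opposite directions. Cacna1h, the pore of a T-type calcium channel, was 0.17 higher (limma adjusted p = 0.042), a call lost without any 1 of scrambled replicates 1, 2 and 3 (0.102, 0.0972 and 0.0976) or Sin3A shRNA replicates 1 and 2 (0.0906 and 0.155). Cacna1a, the pore of P/Q-type channels, had a change of 0.04 that did not pass (95% confidence interval -0.08 to 0.16).

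Of the 9 genes of the synaptic vesicle and its release machinery, Unc13a was the 1 that was called. It had log2 levels of 9.21, 9.30 and 9.30 in the Sin3A shRNA arrays, against 8.09, 8.07 and 7.92 in the scrambled arrays. The change was 1.24 ± 0.06 (SE, limma adjusted p = 4.33e-05), and no array of one group reached the other. The other 8 had changes between -0.21 for Syp, a vesicle membrane protein, and 0.25 for Syt1, the calcium sensor of release, neither of which passed (limma adjusted p = 0.0585 and 0.111). Snap25 and Stx1a, the plasma membrane SNARE proteins that fuse vesicles, had 0.02 (95% confidence interval -0.12 to 0.17) and 0.05 (-0.08 to 0.18). Syn1, which tethers vesicles and has the RE1 match printed above, had 9.26, 9.35 and 9.33 with the Sin3A shRNA, against 9.35, 9.37 and 9.31 with the scrambled shRNA, and the arrays overlapped.

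The granins are acidic proteins packed into dense-core vesicles with peptide hormones. Chga, which encodes chromogranin A, was called and the other 4 of this group (Chgb, Scg2, Scg3 and Vgf) were not, with changes between -0.19 and 0.01. Chga had log2 levels of 10.10, 10.34 and 10.21 in the Sin3A shRNA arrays, against 9.85, 9.60 and 9.83 in the scrambled arrays. The knockdown arrays were all higher, by 0.46 ± 0.09 on average (SE, limma adjusted p = 0.00727).

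Of the 3 transmitter genes, Gad1, whose enzyme makes the inhibitory transmitter GABA, rose by 0.32 ± 0.07 on the log2 scale (SE, limma adjusted p = 0.0168). Its levels were 8.25, 8.16 and 8.13 with the Sin3A shRNA, against 7.73, 7.98 and 7.88 with the scrambled shRNA, and the call was lost without Sin3A shRNA replicate 2 (0.0522). The AMPA receptor gene Gria2 had 4.78, 4.78 and 4.76 with the Sin3A shRNA, against 4.72, 4.80 and 4.65 with the scrambled shRNA, and the groups overlapped. It lay below the lower quartile of probe sets in the scrambled arrays. Slc17a6, a vesicular glutamate transporter, had a change of -0.10 that did not pass (95% confidence interval -0.32 to 0.11).

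The neurofilament genes, which encode the intermediate filament subunits of axons, split. Nefl had log2 levels of 10.85, 10.86 and 10.85 in the Sin3A shRNA arrays, against 10.17, 10.10 and 10.13 in the scrambled arrays. Nefm, the medium subunit, had 6.74, 6.80 and 7.03 with the Sin3A shRNA, against 6.26, 6.18 and 6.15 with the scrambled shRNA. Both rose, by 0.72 ± 0.05 and 0.66 ± 0.08 (SE, limma adjusted p = 7.76e-05 and 0.00106). Nefm lay below the lower quartile of probe sets in the scrambled arrays. Nefh, the heavy subunit, had 9.55, 9.46 and 9.44 in the Sin3A shRNA arrays, against 9.79, 9.70 and 9.88 in the scrambled arrays. It was lower in all 3 knockdown arrays and fell by 0.30 ± 0.06 (SE, limma adjusted p = 0.00984). The microtubule regulators Stmn2 and Stmn3, the growth cone protein gene Gap43 and Dcx, a gene of migrating neurons, had changes between -0.03 and 0.09 and did not pass.

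In the remaining group of 7, Celsr3, an atypical cadherin of axon guidance, was the single call. It had log2 levels of 8.74, 8.66 and 8.71 in the Sin3A shRNA arrays, against 8.48, 8.26 and 8.48 in the scrambled arrays. The increase was 0.29 ± 0.07 (SE, limma adjusted p = 0.0202), and it no longer passed without Sin3A shRNA replicate 1, 2 or 3 (0.0542, 0.0504 and 0.0529). Bdnf, a neurotrophin and a long-known REST target, had a change of 0.01 (95% confidence interval -0.11 to 0.13). The cell adhesion gene L1cam, the scaffold gene Mapk8ip2, Disp2 of the Dispatched family, the calcium buffer gene Calb1 and the mitochondrial gene Gdap1 had changes between -0.24 and 0.15, and none passed. Over the whole set the count of members called higher was 5, in place of 9, without Sin3A shRNA replicate 2.

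**Figure D2:**
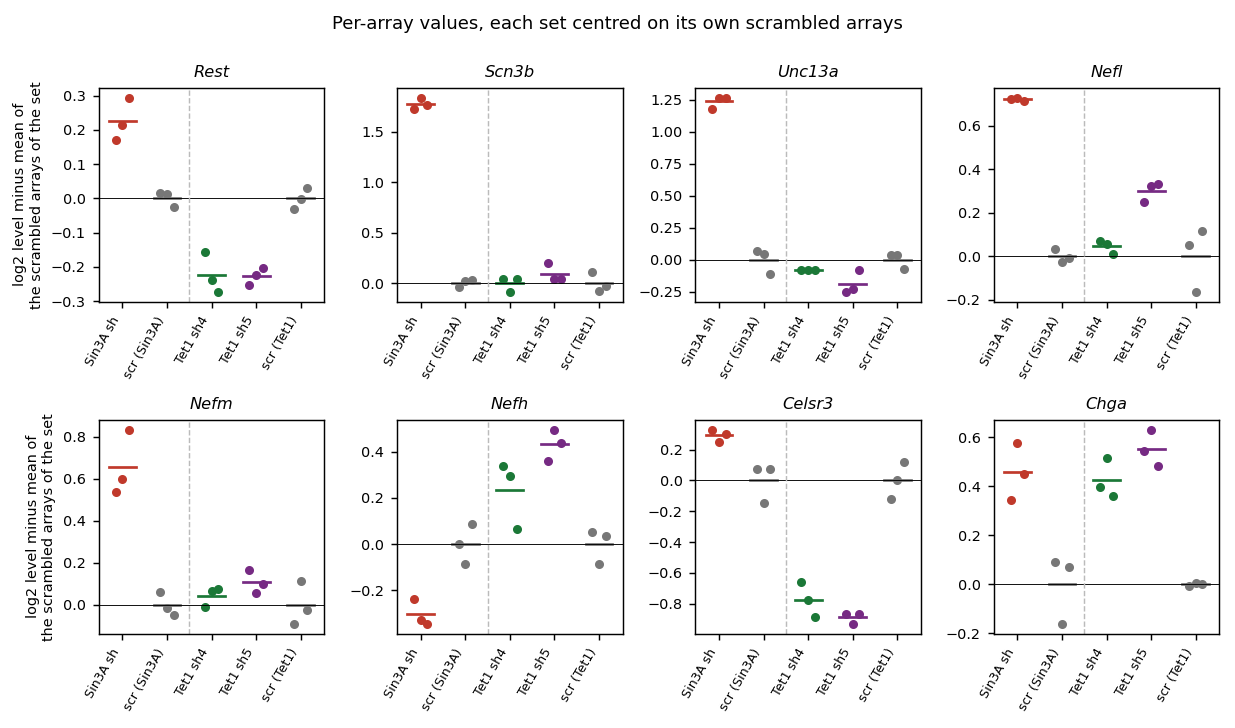
Log2 level in each array (points) and the group mean (lines) of 8 members, after the mean of the scrambled arrays of the same set was subtracted, for Sin3A shRNA and its scrambled arrays left of the dashed line and Tet1 shRNA 4, Tet1 shRNA 5 and their scrambled arrays right of it. Rest, Celsr3 and Nefh lie on opposite sides of 0 in the Sin3A and Tet1 knockdowns, and Chga lies above 0 in all 3 knockdown groups.

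Each Tet1 hairpin was compared with the scrambled arrays of the Tet1 set to see whether the same genes respond when the partner of SIN3A is depleted. Both comparisons use the same 3 scrambled arrays, so a deviation of those arrays enters both and their values are given side by side. In the Tet1 set 10415 of 21212 probe sets held the same value in more than 1 array, against 0 in the Sin3A set. Cacna1a, for instance, had 8.2879 in replicates 1 and 2 of Tet1 shRNA 5, and Syp had 6.1913 in replicates 2 and 3 of Tet1 shRNA 4. Equal values can narrow the scatter behind the SE and p-values, and their cause was not tested. Celsr3, Syp, Snap25 and Rest were called lower with each hairpin, and Chga, Cacna1a and Stmn3 higher. With Tet1 shRNA 4, 4 of 36 members were called higher (11.1%, against 6.88% of all probe sets) and 4 lower (11.1%, against 4.71%). With Tet1 shRNA 5, 5 were called higher (13.9%, against 8.37%) and 5 lower (13.9%, against 5.46%). The median log2 change of the members was -0.02 and -0.04, and that of all probe sets was 0.00 for both hairpins. Scn3b and Unc13a, the genes with the largest Sin3A changes, had -0.004 and -0.08 with Tet1 shRNA 4 and 0.09 and -0.19 with Tet1 shRNA 5, and neither passed.

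Rest had log2 levels of 11.58, 11.50 and 11.47 with Tet1 shRNA 4 and 11.49, 11.52 and 11.54 with Tet1 shRNA 5, against 11.71, 11.74 and 11.77 with the scrambled shRNA. All 6 knockdown arrays were below all 3 scrambled arrays, and the changes were -0.22 ± 0.06 and -0.23 ± 0.06 (SE, limma adjusted p = 0.0297 and 0.0236). The call for Tet1 shRNA 4 was lost without scrambled replicate 1 or 3 (0.0533 and 0.0996), without replicate 2 or 3 of that hairpin (0.0751 and 0.102), without Tet1 shRNA 5 replicate 2, which shares the fit (0.0524), or without both arrays that stood apart (0.0732). For Tet1 shRNA 5 it was lost without scrambled replicate 3 (0.0831) or without replicate 1, 2 or 3 of that hairpin (0.0832, 0.0736 and 0.0559). With the replicate number as a block neither call passed (adjusted p = 0.0674 for Tet1 shRNA 4 and 0.0554 for Tet1 shRNA 5).

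The calcium channel gene Cacna1a was higher with both hairpins. It had log2 levels of 8.58, 8.52 and 8.53 with Tet1 shRNA 4 and 8.29, 8.29 and 8.30 with Tet1 shRNA 5, against 8.07, 7.88 and 8.05 with the scrambled shRNA. The changes were 0.55 ± 0.06 and 0.29 ± 0.06 (SE, limma adjusted p = 0.000498 and 0.0133). Cacna1h passed with Tet1 shRNA 4 (0.53 ± 0.11, limma adjusted p = 0.0142) and not with Tet1 shRNA 5 (0.28 ± 0.11, 0.155). Its scrambled arrays were spread, at 6.89, 7.40 and 7.08. The first call was lost without scrambled replicate 3 (0.0554), and the second was gained without scrambled replicate 2 (0.00873) or without both arrays that stood apart (0.0118).

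Of the 9 genes of the vesicle and its release machinery, 2 were called lower with Tet1 shRNA 4 (22.2%, against 4.71% of all probe sets). With Tet1 shRNA 5, 3 were called lower (33.3%, against 5.46%), and 0 were higher with either hairpin. Syt1, Syn1, Unc13a, Cplx1 and Cplx2 passed with neither. The change was above 0 for 4 of the 9 with Tet1 shRNA 4 and for 2 with Tet1 shRNA 5. Snap25 had log2 levels of 6.04, 5.99 and 5.86 with Tet1 shRNA 4 and 6.04, 5.93 and 5.97 with Tet1 shRNA 5, against 6.40, 6.27 and 6.28 with the scrambled shRNA. It fell by 0.36 ± 0.07 and 0.34 ± 0.07 (SE, limma adjusted p = 0.00849 and 0.00959), with no overlap. Syp had 5.92, 6.19 and 6.19 with Tet1 shRNA 4 and 6.19, 6.19 and 6.13 with Tet1 shRNA 5, against 6.65, 6.74 and 6.33 with the scrambled shRNA, and fell by 0.47 and 0.40 (limma adjusted p = 0.0229 and 0.0403). Syt4, another synaptotagmin, passed with Tet1 shRNA 5 (-0.35, limma adjusted p = 0.0481) and not with Tet1 shRNA 4 (-0.29, 0.0979). Stx1a had -0.22 and -0.29, neither of which passed (0.157 and 0.0543). All 4 had scrambled levels below the median probe set. The Syp call for Tet1 shRNA 4 was lost without scrambled replicate 1 or 2 (0.0786 and 0.0632), without its own replicate 1 (0.0859) or without both arrays that stood apart (0.0727). For Tet1 shRNA 5 it was lost without scrambled replicate 1 or 2 (0.117 and 0.11), without its own replicate 1, 2 or 3 (0.0971, 0.1 and 0.124), without Tet1 shRNA 4 replicate 3 (0.0539) or without both arrays that stood apart (0.113). The Syt4 call was lost without scrambled replicate 1, 2 or 3 (0.0874, 0.113 and 0.113), Tet1 shRNA 4 replicate 3 (0.0686), Tet1 shRNA 5 replicate 2 or 3 (0.169 and 0.131), or both arrays that stood apart (0.0989).

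Chga was the 1 granin called with the Tet1 hairpins, as it was with the Sin3A shRNA. It had log2 levels of 9.15, 9.27 and 9.11 with Tet1 shRNA 4 and 9.30, 9.38 and 9.24 with Tet1 shRNA 5, against 8.75, 8.76 and 8.75 with the scrambled shRNA. Chga rose by 0.42 ± 0.06 and 0.55 ± 0.06 (SE, limma adjusted p = 0.00218 and 0.000485), and all 6 knockdown arrays lay above the scrambled ones. None of the 3 transmitter genes passed with either hairpin, and their changes lay between -0.18 and 0.06.

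Of the 7 cytoskeletal genes, 1 was called higher with Tet1 shRNA 4 (14.3%, against 6.88% of all probe sets). With Tet1 shRNA 5, 3 were called higher (42.9%, against 8.37%), and 0 were lower with either hairpin. Stmn2, Nefm, Gap43 and Dcx passed with neither. The lowest change was that of Stmn2 (-0.06 with Tet1 shRNA 4 and -0.15 with Tet1 shRNA 5). Stmn3 rose by 0.36 ± 0.08 with Tet1 shRNA 4 and by 0.29 ± 0.08 with Tet1 shRNA 5 (log2 ± SE; limma adjusted p = 0.0175 and 0.0376). Nefh had log2 levels of 8.80, 8.76 and 8.53 with Tet1 shRNA 4 and 8.82, 8.96 and 8.90 with Tet1 shRNA 5, against 8.52, 8.37 and 8.50 with the scrambled shRNA. Its arrays lay above the scrambled ones in both groups, and the change passed with Tet1 shRNA 5 (0.43 ± 0.08, limma adjusted p = 0.00688) and not with Tet1 shRNA 4 (0.23 ± 0.08, 0.113; 0.034 without replicate 3 of that hairpin). Nefl had 9.80, 9.79 and 9.74 with Tet1 shRNA 4 and 9.98, 10.06 and 10.06 with Tet1 shRNA 5, against 9.78, 9.57 and 9.85 with the scrambled shRNA. It passed with Tet1 shRNA 5 (0.30 ± 0.08, limma adjusted p = 0.0269) and not with Tet1 shRNA 4 (0.05, 0.782), and the call was lost without replicate 1, 2 or 3 of Tet1 shRNA 5 (0.0533, 0.0911 and 0.0902). Stmn3 was lost for Tet1 shRNA 4 without scrambled replicate 3 (0.0676), its own replicate 1 (0.0661) or both arrays that stood apart (0.0907). For Tet1 shRNA 5, Stmn3 was lost without scrambled replicate 2 or 3 (0.0915 and 0.122), any 1 of the 3 Tet1 shRNA 4 arrays (0.0511 to 0.0598), any 1 of its own arrays (0.0569 to 0.125), or both arrays that stood apart (0.105).

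Celsr3 had the largest Tet1 changes of the set. Its log2 levels were 7.07, 6.96 and 6.85 with Tet1 shRNA 4 and 6.87, 6.80 and 6.86 with Tet1 shRNA 5, against 7.61, 7.73 and 7.85 with the scrambled shRNA. All 6 knockdown arrays lay below the scrambled ones, at -0.77 ± 0.08 and -0.89 ± 0.08 on the log2 scale (SE, limma adjusted p = 0.000252 and 0.000113), or 1.71-fold and 1.85-fold lower. L1cam, Bdnf, Calb1, Mapk8ip2, Disp2 and Gdap1 passed with neither hairpin, and the lowest of their values were those of Mapk8ip2 (-0.24 and -0.30, limma adjusted p = 0.169 and 0.0724). Over the set, Tet1 shRNA 4 had 2 members called higher without scrambled replicate 3 and 2 called lower without scrambled replicate 1. Tet1 shRNA 5 had 3 called higher without any 1 of its own 3 arrays. It had 2 called lower without its own replicate 2 or 3, and 3 without its own replicate 1 or scrambled replicate 2 or 3.

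The hairpins were also compared with each other. No member passed for Tet1 shRNA 5 against Tet1 shRNA 4 by limma (0 of 36, with 3 at an unadjusted p under 0.05), and 0.141% of all probe sets did. The values nearest to a call were Cacna1a (-0.25, 95% confidence interval -0.40 to -0.11, limma adjusted p = 0.235) and Nefl (0.25, 0.08 to 0.43, 0.316). For Rest the interval of the difference was -0.13 to 0.12.

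The Sin3A and Tet1 responses were then set against each other, each taken from the scrambled arrays of its own set. The gap between the sets was not the same at all levels. In the scrambled arrays Gria2 had 4.72 in the Sin3A set and 3.52 in the Tet1 set, and Stmn2 had 12.71 and 12.18. A log2 change may thus not have the same scale in both sets, and knockdown and set cannot be told apart here. The Sin3A change was higher than the mean of both Tet1 changes for 9 of 36 members (25%, against 8.71% of all probe sets) and lower for 4 (11.1%, against 11.3%). Scn3b and Unc13a led, with differences of 1.73 ± 0.09 and 1.37 ± 0.08 (SE, limma adjusted p = 2.63e-08 and 1.26e-07). For Celsr3 the Sin3A change was 0.29 and the mean Tet1 change -0.83, a difference of 1.12 ± 0.10 (SE, limma adjusted p = 4.2e-06). Rest had 0.23 with Sin3A knockdown and -0.23 with Tet1 knockdown, a difference of 0.45 ± 0.07 (SE, limma adjusted p = 0.00028). Nefh had -0.30 and 0.33, a difference of -0.64 ± 0.10 (SE, limma adjusted p = 0.000399).

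The other members whose response was higher with Sin3A knockdown were Nefm (0.58, limma adjusted p = 0.000834), Nefl (0.55, 0.000355), Gad1 (0.47, 0.00454), Snap25 (0.37, 0.00739) and Stx1a (0.30, 0.0493). Those lower were Cacna1a (-0.38, 0.00208), Stmn3 (-0.35, 0.022) and Scn8a (-0.27, 0.0426). The Stx1a call was lost without any 1 of 13 of the 15 arrays (adjusted p up to 0.134; not lost without replicate 1 of Tet1 shRNA 5 or of the scrambled group of the Tet1 set). The Scn8a call was lost without any 1 of 12 of them (up to 0.115; not lost without Tet1 shRNA 4 replicate 3, Tet1 shRNA 5 replicate 1 or Sin3A shRNA replicate 1). The Stmn3 call was lost without scrambled replicate 3 of the Tet1 set (0.0556), scrambled replicate 3 of the Sin3A set (0.0553) or Sin3A shRNA replicate 3 (0.0658). Chga had 0.46 with the Sin3A shRNA and a mean of 0.49 with the Tet1 hairpins, and the 95% confidence interval of its difference was -0.25 to 0.19. Across the 36 members the Sin3A change and the mean Tet1 change had Pearson's r of 0.053 and Spearman's rho of 0.062, with the same sign in 19. This is across genes, which are not independent replicates.

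**Figure D3:**
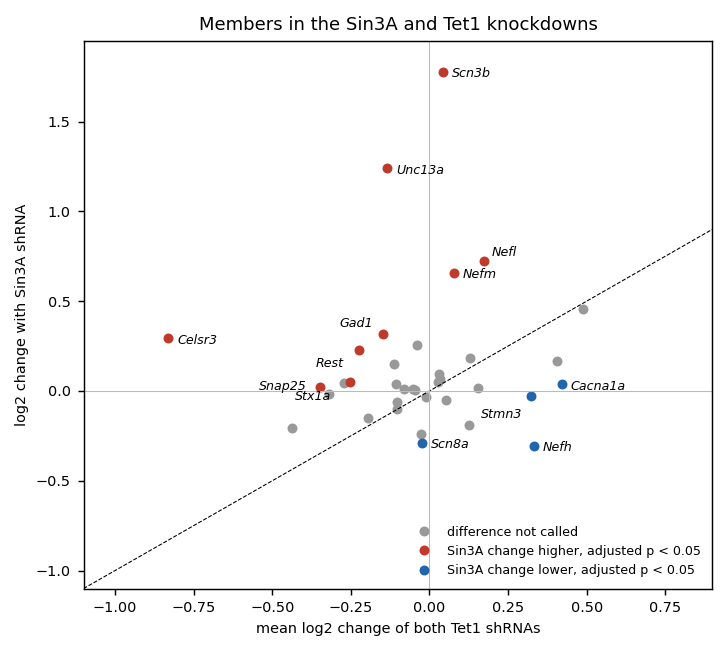
Log2 change with the Sin3A shRNA (vertical) against the mean log2 change of both Tet1 shRNAs (horizontal) for the 36 measured members, with the dashed line where both are equal and colours for a called difference. Scn3b and Unc13a lie high above the line with Tet1 changes near 0, Celsr3 lies to the upper left, and Nefh to the lower right.

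The genes for proteins that work with REST were examined as a list of 25 cofactors and regulators, of which 23 had a probe set. With the Sin3A shRNA, 4 of 23 were called higher (17.4%, against 12.2% of all probe sets) and 4 lower (17.4%, against 12.6%), one of them Sin3a, the hairpin's own target (-1.55, limma adjusted p = 1.28e-05). Of the list, 22 of 23 lay above the median probe set in the scrambled arrays. In a fit of the 10606 probe sets above the median level, 2531 were called higher and 2478 lower, so calls were more common there. The 17.4% of the list, from the main fit, was below the share called there in each direction. The CoREST paralogues moved apart: Rcor2 fell by 0.48 ± 0.05 and Rcor3 rose by 0.37 ± 0.07 (SE, limma adjusted p = 0.000475 and 0.00569), while Rcor1 did not pass (0.04). Usp15, a deubiquitinase reported to sustain REST, was higher by 0.25, and Ehmt2, a histone H3 lysine methyltransferase, by 0.19 (limma adjusted p = 0.0119 and 0.0234). Ctdspl and Ctdsp2, paralogous phosphatases that act on REST, were called in opposite directions (0.17 and -0.23, limma adjusted p = 0.0496 and 0.0385). Zmynd8, a chromatin reader, was lower by a log2 change of -0.23 (limma adjusted p = 0.0194). The calls of Sin3a, Rcor2, Rcor3 and Usp15 passed without any 1 array and the others did not. Ctdspl was lost without any 1 of 5 of the 6 arrays (adjusted p up to 0.152; not lost without Sin3A shRNA replicate 3), as was Ehmt2 (up to 0.0819; the same exception) and Ctdsp2 (up to 0.126; not lost without scrambled replicate 2). Zmynd8 was lost without scrambled replicate 1 or 2 (0.0757 and 0.0533) or Sin3A shRNA replicate 2 or 3 (0.0617 and 0.0606). Without 1 array at a time, 2 to 4 of the list were called higher and 2 or 3 lower.

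With the Tet1 hairpins the called cofactors were mostly lower, 7 of 23 with Tet1 shRNA 4 (30.4%, against 4.71% of all probe sets) and 8 of 23 with Tet1 shRNA 5 (34.8%, against 5.46%). In each, 2 were higher (8.7%, against 6.88% and 8.37%). The list was bright, with 21 of 23 above the median probe set in the scrambled arrays. In a fit of the 10606 probe sets above the median level, 1051 were called lower with Tet1 shRNA 4 and 1170 with Tet1 shRNA 5, so calls were more common there. The count called lower with Tet1 shRNA 4 was 2 without scrambled replicate 1 or Tet1 shRNA 4 replicate 3, and with Tet1 shRNA 5 it was 5 without scrambled replicate 1 or 3 or any 1 array of that hairpin. The median log2 change of the list was -0.16 and -0.14, against 0.00 for all probe sets in both. Zmynd8 had -0.47 ± 0.06 with Tet1 shRNA 4 and -0.64 ± 0.06 with Tet1 shRNA 5 (log2 ± SE; limma adjusted p = 0.00105 and 0.000177). Hmg20b, a DNA-binding subunit of CoREST complexes, had -0.39 with each (limma adjusted p = 0.0051 and 0.00478). Rcor1, which encodes CoREST, had -0.35 and -0.44 (limma adjusted p = 0.0446 and 0.0138), and Sin3a had -0.27 and -0.24 (0.0147 and 0.0219). The cofactors called higher were Phf21a, a histone-reading CoREST subunit (0.48 and 0.25, limma adjusted p = 0.00132 and 0.0322), and Ctdsp1, a small phosphatase (0.35 with each, 0.0467 and 0.0435). The remaining calls, all lower, were Ehmt1, Usp7 and Ctdsp2 with both hairpins and Sin3b with Tet1 shRNA 5. Kdm1a, Hdac1 and Hdac2, the enzymes of these complexes, passed in none of the 3 comparisons in the main fits. With the Sin3A shRNA, Hdac2 (0.16) passed as higher in the fit of probe sets above the median level (limma adjusted p = 0.0276). It also passed there in a fit with an intensity trend (0.0193).

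Of the cofactor calls with the Tet1 hairpins, Zmynd8 and Hmg20b passed without any 1 array with both hairpins. So did Phf21a with Tet1 shRNA 4 and Rcor1 and Ctdsp2 with Tet1 shRNA 5. With Tet1 shRNA 4, Rcor1 was lost without any 1 of 8 of the 9 arrays (adjusted p up to 0.136; not lost without Tet1 shRNA 5 replicate 1) and without both arrays that stood apart (0.125). Ctdsp1 was lost without any 1 of 8 (up to 0.149; not lost without scrambled replicate 2), Ctdsp2 without any 1 of 8 (up to 0.153; not lost without Tet1 shRNA 4 replicate 1) and without both arrays that stood apart (0.138). Ehmt1 was lost without any 1 of 7 (up to 0.118; not lost without scrambled replicate 2 or Tet1 shRNA 5 replicate 3). Usp7 was lost without any 1 of 6 (up to 0.109; not lost without scrambled replicate 2 or Tet1 shRNA 5 replicate 1 or 3). Sin3a was lost when scrambled replicate 1 (0.0504), Tet1 shRNA 4 replicate 1 (0.0563) or Tet1 shRNA 4 replicate 3 (0.0539) was left out. With the replicate number as a block, Rcor1, Ehmt1, Ctdsp1 and Ctdsp2 did not pass with Tet1 shRNA 4 (adjusted p = 0.0821, 0.0707, 0.0507 and 0.0684).

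With Tet1 shRNA 5, Ehmt1 was lost without any 1 of 8 of the 9 arrays (adjusted p up to 0.149; not lost without scrambled replicate 2). Ctdsp1 was lost without any 1 of 7 (up to 0.141; not lost without scrambled replicate 2 or Tet1 shRNA 4 replicate 2). Phf21a was lost without scrambled replicate 1, 2 or 3 (0.0701, 0.0697 and 0.0619), Tet1 shRNA 5 replicate 2 or 3 (0.124 and 0.0895), or both arrays that stood apart (0.0625). Usp7 and Sin3a were lost without scrambled replicate 1 (0.073 and 0.0669), scrambled replicate 3 (0.0824 and 0.0582), Tet1 shRNA 5 replicate 1 (0.0827 and 0.0868) or Tet1 shRNA 5 replicate 3 (0.0553 and 0.0582), and Usp7 also without Tet1 shRNA 5 replicate 2 (0.0631). Sin3b was lost without Tet1 shRNA 5 replicate 2 (0.0504).

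**Figure D4:**
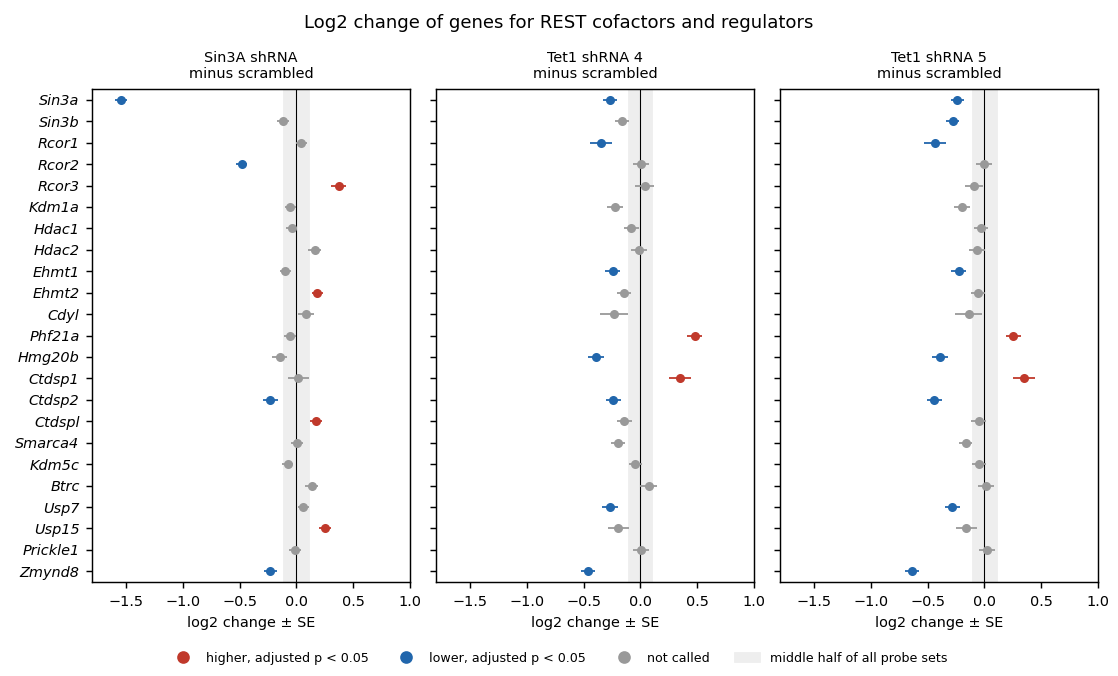
Log2 change (points, with SE as bars) of 23 genes for REST cofactors and regulators in the Sin3A shRNA, Tet1 shRNA 4 and Tet1 shRNA 5 groups, each against the scrambled arrays of its set. Sin3a lies at -1.55 in the Sin3A panel, and Zmynd8 at -0.47 and -0.64 in the Tet1 panels.

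A further list of 30 reported REST targets outside the set had 28 measured genes. With the Sin3A shRNA, 3 of 28 were called higher (10.7%, against 12.2% of all probe sets) and 2 lower (7.14%, against 12.6%), with a median log2 change of 0.02. Cacna1b, the pore of N-type calcium channels, rose most (0.79 ± 0.07, SE, limma adjusted p = 0.00021), followed by Rundc3a (0.39, 0.0123) and the vesicle GTPase gene Rab3a (0.22, 0.0398), while the RNA-binding protein gene Elavl4 and the potassium channel gene Kcnh1 had -0.28 each (0.0126 and 0.0115). With Tet1 shRNA 4, 1 was higher (3.57%, against 6.88%) and 3 lower (10.7%, against 4.71%), and with Tet1 shRNA 5, 1 was higher (3.57%, against 8.37%) and 2 lower (7.14%, against 5.46%). Cacna1b was lower with both (-0.32 with each, limma adjusted p = 0.0129 and 0.0121), as was Ina, a neuronal intermediate filament gene (-0.86 and -0.51, limma adjusted p = 1.68e-05 and 0.000279). The muscarinic receptor gene Chrm4 was higher with both (0.38 and 0.30, limma adjusted p = 0.0131 and 0.0386). For Ptprn, a dense-core vesicle gene, the Tet1 shRNA 4 change was -0.31 (limma adjusted p = 0.0287).

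The calls of Cacna1b and Rundc3a with the Sin3A shRNA and of Ina with both Tet1 hairpins passed without any 1 array. With the Sin3A shRNA, Rab3a was lost without any 1 of 5 of the 6 arrays (adjusted p up to 0.113; not lost without scrambled replicate 1), Elavl4 without scrambled replicate 1 (0.0509) and Kcnh1 without Sin3A shRNA replicate 2 (0.0528). With Tet1 shRNA 4, Ptprn was lost without scrambled replicate 1, 2 or 3 (0.078, 0.0577 and 0.0715), Tet1 shRNA 4 replicate 3 (0.0675) or both arrays that stood apart (0.0794). Cacna1b was lost there without scrambled replicate 3 (0.0544), Tet1 shRNA 4 replicate 1 (0.053) or both arrays that stood apart (0.0635), and Chrm4 without scrambled replicate 3 (0.0505). With Tet1 shRNA 5, Cacna1b was lost without scrambled replicate 3 (0.0515) or Tet1 shRNA 5 replicate 2 (0.0525). Chrm4 was lost there without any 1 of 7 of the 9 arrays (up to 0.128; not lost without scrambled replicate 2 or Tet1 shRNA 4 replicate 2).

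In bulk RNA, more cells of a type and more RNA per cell cannot be told apart, so markers of other cells were read beside the members. Their counts stand against 12.2% of all probe sets called higher and 12.6% lower with the Sin3A shRNA, 6.88% and 4.71% with Tet1 shRNA 4, and 8.37% and 5.46% with Tet1 shRNA 5. Of 11 neural progenitor markers, the Sin3A shRNA arrays had 1 called higher (9.09%), Neurod1 (0.77, limma adjusted p = 0.000121), and 3 lower (27.3%), Msi1, Nes and Pax6 (-0.45, -0.36 and -0.18). The Pax6 call was lost without any 1 of 5 of the 6 arrays (up to 0.0938; not lost without scrambled replicate 3). The mean log2 level of the list was 7.84 to 7.96 in the Sin3A shRNA arrays, against 7.88 to 7.97 in the scrambled arrays. With Tet1 shRNA 4 and 5, 3 and 4 of these markers were lower (27.3% and 36.4%) and none higher. Neurod1 had -1.76 and -1.23 there, Nes -0.75 and -0.47 and Pax6 -0.64 and -0.49 (limma adjusted p between 1.82e-05 and 0.00375). The list mean was 6.51 to 6.59 with Tet1 shRNA 4 and 6.59 to 6.67 with Tet1 shRNA 5, against 6.83 to 6.90 with the scrambled shRNA.

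Of 10 neuron markers outside the set, 2 were higher (20%) and 4 lower (40%) with the Sin3A shRNA, with Ncam1 at 0.77 (limma adjusted p = 0.000117), Uchl1 at 0.30 and Rbfox3, a marker of mature neurons, at -0.34. The count lower was 1 without scrambled replicate 1, and the Rbfox3 call was lost without that array (0.0649) or Sin3A shRNA replicate 2 or 3 (0.0683 and 0.0524). The list mean was 8.37 to 8.42 in the Sin3A shRNA arrays, against 8.43 to 8.45 in the scrambled arrays. The Tet1 hairpins had 4 and 2 of the 10 higher (40% and 20%) and none lower, with Thy1 at 0.82 and 0.81 and Uchl1 at 0.32 and 0.46. The 4 became 1 without scrambled replicate 1 or Tet1 shRNA 4 replicate 1 or 2, and the Uchl1 call with Tet1 shRNA 4 was lost without those (0.081, 0.0604 and 0.0603) or scrambled replicate 3 (0.0549). That list mean was 7.73 to 7.76 with Tet1 shRNA 4 and 7.66 to 7.71 with Tet1 shRNA 5, against 7.53 to 7.56 with the scrambled shRNA. Of 7 glia markers, Aldh1l1 and Slc1a3 were higher with the Sin3A shRNA (0.71 and 0.43, 28.6% of the list). S100b was lower with Tet1 shRNA 4 (-0.28, 14.3%), a call lost without scrambled replicate 2 or 3 (0.055 and 0.074), Tet1 shRNA 4 replicate 1 or 3 (0.0728 and 0.0978) or both arrays that stood apart (0.0584). Of 10 primitive endoderm markers, 1 was higher with the Sin3A shRNA, Sox7 (0.45, 10%), and 1 lower, Dab2 (-0.86, 10%). Sox7 was also the 1 called with Tet1 shRNA 4 (0.80, 10%). With Tet1 shRNA 5, 2 were higher (20%), Sox7 (0.83) and Cubn, and 1 lower, Dab2 (-0.41, 10%). The 2 became 1 without replicate 3 of that hairpin. Of 10 fibroblast markers, 2 were lower with the Sin3A shRNA, none of them without scrambled replicate 1 or Sin3A shRNA replicate 2 or 3, and 1, Thy1, was higher with each Tet1 hairpin. Of the 12 embryonic stem cell markers, Klf4 and Tfcp2l1 were higher (0.41 and 0.26) and Klf2 and Nanog lower (-0.65 and -0.27) with the Sin3A shRNA, which is 16.7% in each direction. Klf4 and Tdgf1 were higher with Tet1 shRNA 4 (0.47 and 0.23) and with Tet1 shRNA 5 (0.27 and 0.20), and Tfcp2l1 was lower with Tet1 shRNA 5 (-0.28). Neither Klf4 nor Tdgf1 passed with Tet1 shRNA 5 without scrambled replicate 1 or 3 or any 1 array of that hairpin (0.0568 to 0.145), and Tdgf1 with Tet1 shRNA 4 was lost without scrambled replicate 1 or 3 (0.0562 and 0.0675) or Tet1 shRNA 4 replicate 1 (0.0835). The part of these markers in the members' changes was not tested.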

How the data were processed

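The deposited table held log2 expression values made by the authors for 21212 probe sets on 15 arrays. Per the submitters' processing notes, affy, RMA and limma were used, without stated versions or settings. The Sin3A and Tet1 sets had different mean levels (8.09, and 7.08 to 7.11), so levels were compared only within a set. Samples were grouped by their titles. Symbols came from the platform annotation.

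Group means were compared by two-sided moderated tests (lmFit, then eBayes, limma 3.58.1 under R 4.3.3) on the values as deposited, with no filter, and p-values were adjusted by Benjamini-Hochberg over all probe sets (threshold 0.05). The Sin3A set and the Tet1 set had a fit each, and the difference between knockdowns came from a fit of all 15 arrays. The fits and the motif search were tested on simulated data. The members and lists were chosen with earlier results of these data known, so no list was tested as a set; all members, and those of the other lists that passed, could be named. The 8 other lists were REST cofactors and regulators, other reported REST targets, and markers of neural progenitors, neurons, glia, primitive endoderm, fibroblasts and embryonic stem cells, and 4 genes were in more than 1 of them. The alternatives tried were another centring, repeated quantile normalization, a filter on dim probe sets, another variance prior, a replicate block, other array sets and leaving out each array. The main fits treated all arrays as unpaired, and the replicate block was run as an alternative. Same-numbered arrays of Tet1 shRNA 4 and its scrambled group had related deviations (r = 0.274, 0.517 and 0.171 across probe sets). Arrays of the Tet1 set with different numbers reached r = 0.281, so these values cannot show pairs, and the labels name none. In the other comparisons at least 1 same-numbered pair had r under 0.1. The number of arrays limits the precision.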

Additional observations from a re-analysis of the deposited data

Results flagged for a closer look

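Rest, Nefh and Celsr3 were called in opposite directions in the Sin3A knockdown and in at least 1 Tet1 knockdown. The rule that flagged them also asked for a called difference between the responses. The adjusted p-values of the differences are thus part of the choice and not further support for it. The Sin3A change minus the mean Tet1 change was 0.45 for Rest (limma adjusted p = 0.00028), -0.64 for Nefh (0.000399) and 1.12 for Celsr3 (4.2e-06). All 3 Sin3A shRNA arrays and all 6 Tet1 shRNA arrays lay on their side of their own scrambled arrays for each of these genes. The genes were chosen by calls on these same arrays, so this separation follows largely from the choice. The differences passed under every alternative run and without any 1 of the 15 arrays, with adjusted p between 2.29e-05 and 0.00346 for Rest, 0.000107 and 0.00295 for Nefh, and 1.12e-06 and 0.000115 for Celsr3. These are refits of the same arrays and not independent support. The separate calls of Rest did not pass with the replicate block, as given below. Knockdown and array set cannot be told apart in these differences.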

How the results depend on the processing

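No called value changed direction under any alternative. Of 11 members called with the Sin3A shRNA, Scn3b, Unc13a, Chga, Nefl and Nefh passed under all of them, and Nefm and Scn8a under all but the filter on dim probe sets, which left them out. With only probe sets above the median level, 1 member was called lower with the Sin3A shRNA and 2 with Tet1 shRNA 4. When the fit held just the 2 groups being compared, 2 were lower with Tet1 shRNA 4, and 3 were higher and 3 lower with Tet1 shRNA 5. Without both arrays that stood apart, 2 were lower with Tet1 shRNA 4 and 3 with Tet1 shRNA 5. Without 1 array at a time, members higher numbered 5 to 8 with the Sin3A shRNA, 2 to 5 with Tet1 shRNA 4 and 3 to 5 with Tet1 shRNA 5, and members lower 2 to 4 and 2 to 5 with the Tet1 hairpins and 2 to 4 for the difference between knockdowns. Outside Tet1 shRNA 4 against scrambled, r of same-numbered arrays ran from -0.287 to 0.036 in the Tet1 set and -0.274 to 0.021 in the Sin3A set. In every comparison the labels give such arrays no more than a shared number. With the replicate block, 3 members were lower with Tet1 shRNA 5 and 2 for the difference between knockdowns, and Rest had adjusted p = 0.0538, 0.0674 and 0.0554 with the Sin3A shRNA and Tet1 shRNA 4 and 5. With quantile normalization repeated, Rest had 0.054 with Tet1 shRNA 4. Other members' calls lost were Cacna1h with the Sin3A shRNA (adjusted p = 0.0694 with an intensity trend, 0.0973 with the replicate block, 0.258 in 1 fit of all 15 arrays), Stmn3 (0.0663 with quantile normalization repeated, 0.0607 with the replicate block) and Syt4 (0.0855 with the replicate block), both with Tet1 shRNA 5. For the difference between knockdowns these were Scn8a (0.0636 with centring, 0.059 with an intensity trend, 0.0733 with the replicate block), Stx1a (0.0566 with the trend, 0.092 with the block) and Stmn3 (0.0528 with the block). In fits of 2 groups, Rest and Syp were lost with Tet1 shRNA 4 (0.0786 and 0.0761), and Syp, Syt4, Nefl and Stmn3 with Tet1 shRNA 5 (0.056, 0.0567, 0.0648 and 0.0838). Of the cofactors with the Sin3A shRNA, Ctdspl was lost with the trend (0.0694), the block (0.108) and 1 fit of all 15 arrays (0.0516), and Ctdsp2 and Ehmt2 with the block (0.0903 and 0.0723). With the Tet1 hairpins, Ctdsp1 was lost with quantile normalization repeated (0.11 and 0.129), Phf21a with Tet1 shRNA 5 with centring (0.0556) and the block (0.0658), and Ehmt1 with Tet1 shRNA 5 with the block (0.0787). Fits of 2 groups lost Ctdsp1, Ctdsp2, Ehmt1 and Usp7 with Tet1 shRNA 4 (0.11, 0.115, 0.079 and 0.0843) and Ctdsp1, Ehmt1 and Phf21a with Tet1 shRNA 5 (0.0629, 0.0912 and 0.0504). Of the other reported targets, Rab3a with the Sin3A shRNA was lost with the block (0.0515) and in 1 fit of all 15 arrays (0.15), and in fits of 2 groups Ptprn with Tet1 shRNA 4 (0.0834) and Chrm4 with Tet1 shRNA 5 (0.0566). Calls were gained as well. Over members and alternatives, leaving out arrays included, 6 calls were gained and 17 lost with the Sin3A shRNA. These were 3 and 18 with Tet1 shRNA 4. With Tet1 shRNA 5 they were 9 and 38, and for the difference between knockdowns 14 and 34. With the Sin3A shRNA, Calb1 passed as lower with quantile normalization repeated (limma adjusted p = 0.0496). Cplx1 passed as higher there among probe sets above the median level (0.033). The cause of these moves was not tested.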
